A study of Mus musculus and Ictidomys tridecemlineatus with 36 samples.

Results

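The genes described here encode the proteins of the cytosolic ribosome. They were taken from the GENCODE M21 mouse annotation as protein-coding autosomal genes whose symbol is Rpl, Rps or Rplp followed by a number, with an optional paralogue letter or digit, and 78 of 20807 protein-coding autosomal genes met this rule. They comprised 29 genes of the small subunit, 40 of the large subunit and 3 of the P-stalk. The other 6 have a symbol ending in l or l1 and are named as relatives of another ribosomal protein gene (paralogue-type). They lay on 18 of the autosomes, with 14 on chromosome 7 and 8 on chromosome 17. The rule used symbols only, and no measured value entered it.

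The data were CUT&RUN peak lists from whole mouse retina at postnatal day 2 (P2). CUT&RUN cuts and sequences the DNA around an antibody bound in intact nuclei. The study made 36 libraries, 20 of them from mouse and 16 from the 13-lined ground squirrel (13LGS) at P5, and the 5 squirrel lists were not used here. In mouse, H3K4me3, H3K27ac, H3K4me1 and the IgG control had 2 libraries each, Neurod1 had 4, and Otx2 had 8, of which 4 used an R&D Systems antibody and 4 an Atlas antibody. Each of the 2 biological replicates pooled the retinas of 3 mice, and a reaction used 385000 nuclei. The labels name no genotype, strain or treatment for these mice.

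The authors called the peaks of each target jointly over all its libraries against IgG. Every peak therefore carried 1 fold enrichment over IgG and 1 q-value for all libraries together. The spread between replicates and the read depth are unknown, and no difference below was tested. Genes sharing a chromosome or a library are not replicates of the retina, so that counts and medians over them describe these lists. The labelled tissue was checked against marker genes. Of 9 retinal markers, 8 had an H3K4me3 peak (among them *Crx*, *Otx2*, *Neurod1*, *Pax6*, *Nrl*, *Prdm1* and *Sox2*), against 1 of 5 markers of pigment epithelium (*Mitf*), 0 of 3 of endothelium, 0 of 3 of microglia and 0 of 2 of erythroid cells. H3K4me1 peaks were found at 8 of the retinal markers, at 3 of 3 of endothelium, at 3 of 5 of pigment epithelium (*Best1*, *Mitf* and *Ttr*) and at *P2ry12* of microglia, which also had an H3K27ac peak. Otx2 peaks were found at 7 of the retinal markers and at the same 3 of pigment epithelium. The part of such cells in the results below was not tested.

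Ribosomal protein genes are transcribed by RNA polymerase II in every growing cell, and their products are assembled with ribosomal RNA in fixed proportions. Their messages classically begin with a cytosine followed by an uninterrupted run of pyrimidines, the terminal oligopyrimidine (TOP) tract, through which mTOR signalling controls their translation. H3K4me3 marks active promoters, H3K4me1 marks enhancers and the flanks of promoters, and H3K27ac marks both when active. Otx2 and Neurod1 are transcription factors of photoreceptor and bipolar cell development.

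The start-site sequences of these genes set them apart from other promoters, and they are shown first. A start was scored as TOP when its base was C and at least 4 pyrimidines followed. The 7 members with a tract of at least 13 bases at an annotated start were the following. Each line runs from 15 bases before the start to 15 bases from the start onward, on the coding strand of GRCm38, with the tract in capitals as far as it is shown.
Rps24, chr14:24490703-24490732, plus strand: cggcagtgagcggtcCTCTTTTCCTCCTCT
Rpl27a, chr7:109519181-109519210, plus strand: acttcgtgagctcctCCCTTTTCCCTTTCT
Rpl32, chr6:115808733-115808762, minus strand: gcgccgccgccgcctCTTCCTTCTTCCTCg
Rpl7, chr1:16104388-16104417, minus strand: gcatgcgccacctttCTCTCTTCTTTTCCg
Rpl34, chr3:130730333-130730362, minus strand: ctcacccgccccttcCTTTTCCTCTTCCgg
Rpl5, chr5:107900557-107900586, plus strand: gtacgtgactccggtCTTTTTCCCCCTTag
Rps2, chr17:24720095-24720124, plus strand: ccgcggcgcctccctCTTCTTCTTCTTCgg

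A TOP start was annotated for 33 of 78 members (42.3%), against 1809 of 20807 protein-coding autosomal genes (8.69%), 7 of 78 genes of the mitochondrial ribosome (8.97%) and 8 of 78 genes of the respiratory chain (10.3%). The members had more annotated starts than other genes, with a median of 6 against 3. Counted by start, 45 of 450 starts of members (10.0%) and 1980 of 90310 starts of all genes (2.19%) were TOP. At 1 reference start per gene, the most upstream start of a principal transcript, the counts were 8 of 78 members (10.3%) and 481 of all genes (2.31%). A start annotated a few bases off its true place would miss the tract. A looser measure, chosen after the sequences were seen, was a run of at least 8 pyrimidines within 20 bases of the reference start, and 28 of 78 members (35.9%) and 3205 of all genes (15.4%) had one.

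The promoters of the gene with the highest H3K4me3 fold (*Rpl4*) and of the 3 P-stalk genes are shown from 120 bases before an annotated start to 30 bases from it onward. Capitals mark the longest pyrimidine run within 20 bases of that start.
Rpl4, chr9:64173255-64173404, plus strand: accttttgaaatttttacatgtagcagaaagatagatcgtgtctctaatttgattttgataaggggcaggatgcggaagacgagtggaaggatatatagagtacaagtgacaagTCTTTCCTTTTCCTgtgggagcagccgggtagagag
Rplp0, chr5:115559347-115559496, plus strand: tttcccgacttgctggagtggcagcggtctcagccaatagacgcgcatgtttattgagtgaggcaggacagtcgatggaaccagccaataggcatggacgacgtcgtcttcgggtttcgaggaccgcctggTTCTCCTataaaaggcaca
Rplp1, chr9:61914513-61914662, minus strand: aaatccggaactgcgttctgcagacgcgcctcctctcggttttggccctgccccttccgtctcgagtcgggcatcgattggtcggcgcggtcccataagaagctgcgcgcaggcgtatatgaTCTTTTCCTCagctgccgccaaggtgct
Rplp2, chr7:141447250-141447399, plus strand: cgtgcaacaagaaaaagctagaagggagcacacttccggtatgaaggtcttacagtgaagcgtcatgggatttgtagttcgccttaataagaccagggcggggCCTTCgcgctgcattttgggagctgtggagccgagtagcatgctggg

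The capitals span 14 bases at *Rpl4*, 10 at *Rplp1*, 7 at *Rplp0* and 5 at *Rplp2*. Of the motifs searched on both strands, the *Rplp1* and *Rplp2* windows held CCGGAA, the core bound by ETS factors, and the *Rplp2* window held GGGCGG, the GC box of Sp factors. The *Rplp0* window held TATAAA, the TATA box, which here lay after the annotated start. The *Rpl4* window held none of the 6 motifs.

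H3K4me3 was found at nearly every member, and its peaks there were high. A peak lay within 1 kb of a start at 75 of 78 members (96.2%, 95% Wilson interval 89.3 to 98.7, for counting error only), against 57.1% of all protein-coding autosomal genes. The highest peak of a member had a median fold of 38.2 (quartiles 26.6 and 55.2, range 10.6 to 126), and the median over the 11872 genes with a peak was 17.6 (quartiles 10.0 and 26.9). Of the 75 members with a peak, 56 (74.7%) lay above the upper quartile of all genes, where 25.0% of all genes lie. The top decile of all genes, above a fold of 38.1, held 39 members (52.0%). No member with a peak was in the lowest 25.0%.

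**Figure D1:**
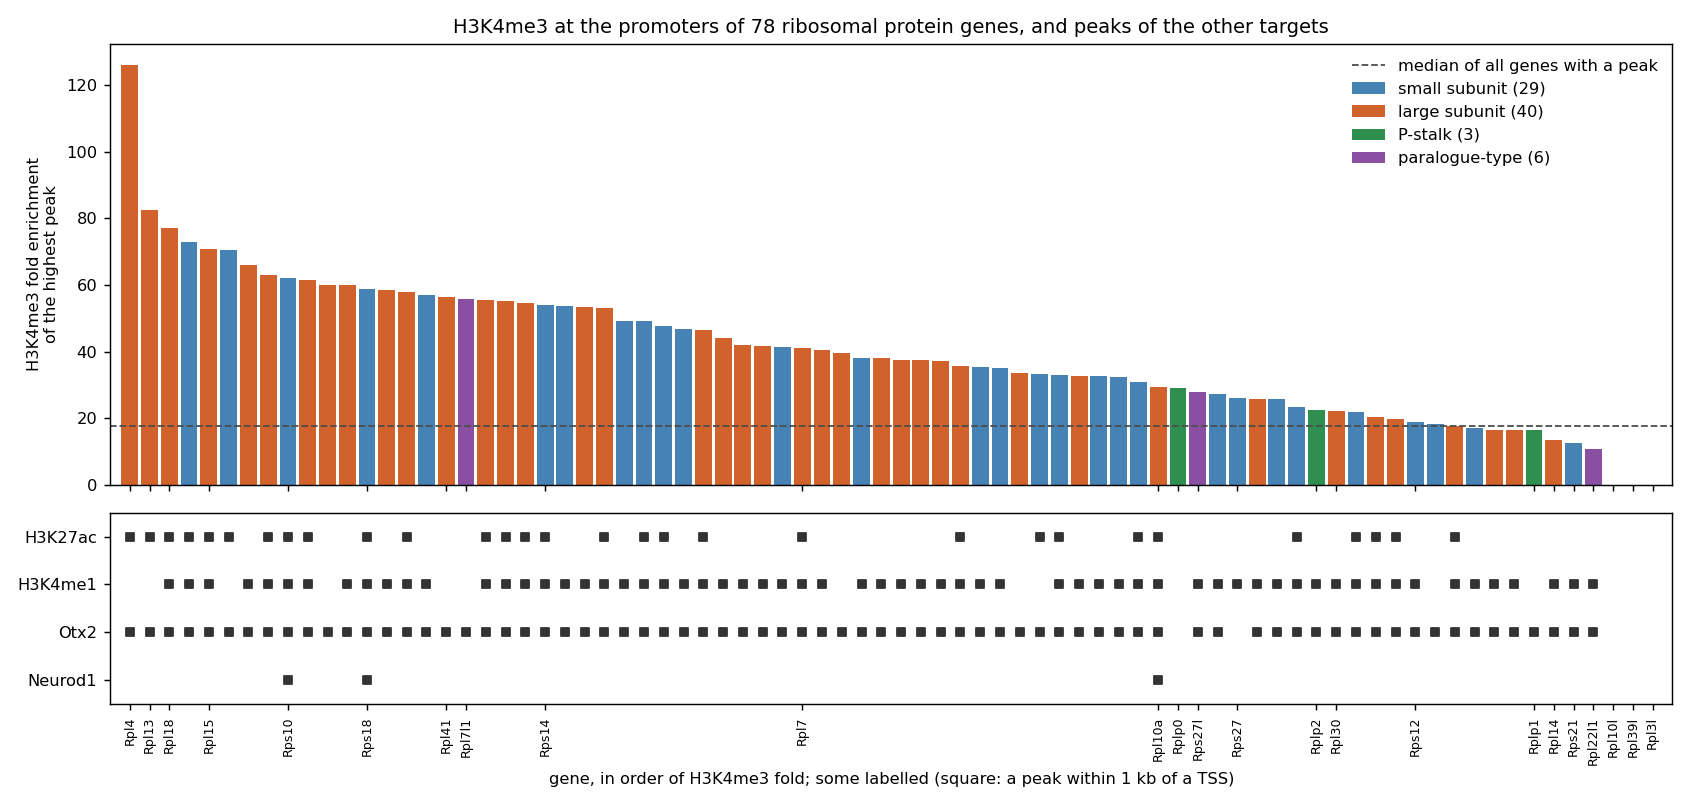
H3K4me3 fold enrichment over IgG of the highest peak within 1 kb of a start (vertical axis, linear) for the 78 genes in order, coloured by class and with some genes of the text labelled, with the median of all genes with a peak (17.6) as a dashed line. Squares below show which genes had a peak of each other target, and the Otx2 row is nearly full while the Neurod1 row holds 3 squares.

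*Rpl4*, a large subunit protein that lines the exit tunnel of the growing peptide, had the highest fold, 126, above 99.9% of all genes with a peak. Its window also held the start of *Zwilch*, a kinetochore gene on the opposite strand, 271 bp away. *Rpl13* followed at 82.4 and *Rpl18* at 77.0, the second of them with a start of *Sphk2* in its window. *Rpl15* had 70.7 and lay near a start of *Nkiras1*. *Rpl13* had no such neighbour, so that the genes named here include members with and without one.

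The lowest folds were those of *Rpl22l1*, the paralogue of *Rpl22*, at 10.6 and of *Rps21* at 12.4. *Rpl14* had 13.5, and *Rpl21*, *Rpl22* and the P-stalk gene *Rplp1* each had 16.3. All 6 lay below the median of all genes with a peak but above its lower quartile. The −log10 q-values of these 6 peaks ran from 63.7 to 140, so that none was near the authors' threshold.

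The 3 members without an H3K4me3 peak were *Rpl10l*, *Rpl39l* and *Rpl3l*, and they had no peak of any other target in the window either. *Rpl10l* and *Rpl39l* are known from the male germ line and *Rpl3l* from heart and skeletal muscle. Their nearest H3K4me3 peaks were 935124 bp, 241488 bp and 3257 bp from a start. The other 3 paralogue-type genes had one: *Rpl7l1* at 55.9, *Rps27l*, a p53 target, at 27.9, and *Rpl22l1*. All 72 members that were not paralogue-type had an H3K4me3 peak.

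The values of the small and large subunits overlapped. The median fold was 35.1 over the 29 small subunit genes and 41.9 over the 40 large subunit genes. The 3 P-stalk genes, which recruit elongation factors to the ribosome, were lower, at 28.9 for *Rplp0*, 22.3 for *Rplp2* and 16.3 for *Rplp1*. Members with another protein-coding gene's start within 1 kb (18 of 78, 17 of them facing an opposite-strand neighbour) had a median of 50.8, and the 57 others with a peak had 37.4. The same split over all genes with a peak gave 21.7 and 16.0. A peak between such starts cannot be assigned to 1 gene.

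Related lists, chosen by name, give the context. H3K4me3 peaks were found at 78 of 78 genes of the mitochondrial ribosome with a median fold of 21.9, and at 72 of 78 genes of the respiratory chain with 22.6. All 30 translation factors had one, with a median of 27.4, as did all 30 ribosome biogenesis genes, with 22.4. Among the translation factors, *Eif4g2* (60.9) and *Eef2* (58.0) were highest. The 9 ribosomal protein genes that the symbol rule left out, 4 of them X-linked, all had a peak, with a median of 35.5 and a highest value of 71.9 at *Rack1*, a scaffold on the small subunit. The members thus had the highest median of these lists.

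**Figure D2:**
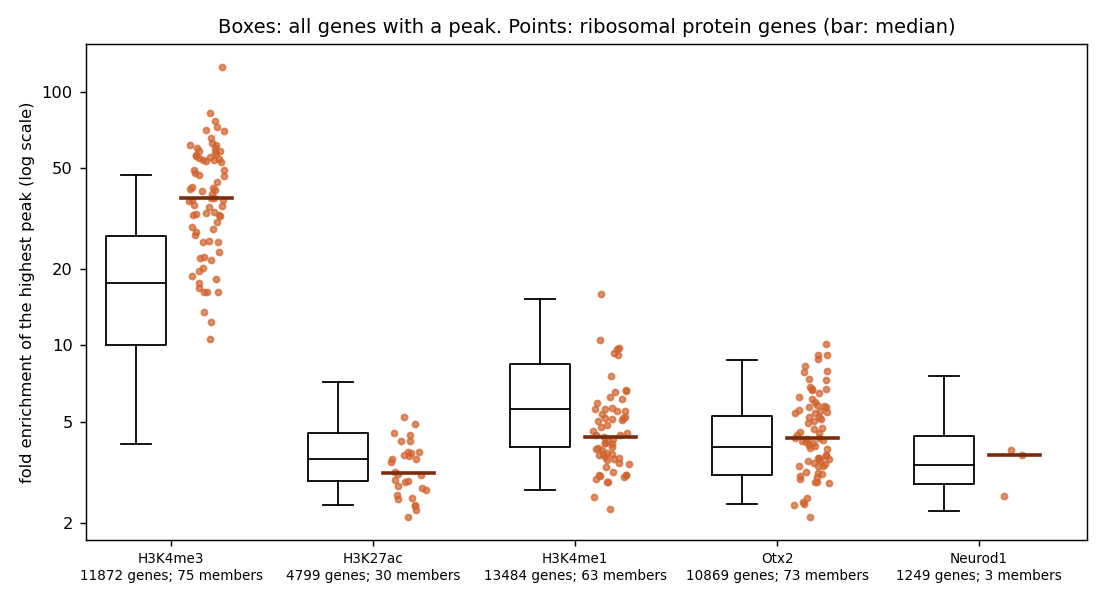
Fold enrichment of the highest peak within 1 kb of a start (log scale) for each target. Boxes give the quartiles of all protein-coding autosomal genes with such a peak (whiskers: 5th and 95th percentiles), and points give the ribosomal protein genes with their median as a bar. The members sit well above the box median for H3K4me3 (38.2 against 17.6) and below it for H3K4me1 (4.34 against 5.63).

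The widths of the H3K4me3 peaks stood out less than their heights. The widest peak of a member had a median width of 1829 bp, against 1586 bp over all genes with a peak. Of the 75 members with a peak, 20 (26.7%) lay above the upper quartile of 2153 bp, and 2 (2.67%) in the top decile, which began at 2855 bp. These 2 were *Rpl7*, at 5566 bp and above 99.2% of all genes, and *Rpl41*, which encodes a very short basic peptide, at 3089 bp. *Rps9* was next at 2696 bp. The *Rpl7* peak (16103045 to 16108610) reached far upstream of its gene, which spans 16101295 to 16104662 on the minus strand. The *Rpl41* peak (128546379 to 128549467) ran past the 3′ end of its gene, which spans 128548114 to 128549305 on the minus strand. H3K4me3 peaks covered another gene's start at 19 of the 75 members. How much of these widths belongs to adjacent promoters was not tested. The genes in the top 25.0% of H3K4me3 fold had a median width of 2300 bp. Across genes with a peak, fold and width had a Spearman correlation of 0.68 over all 11872 genes and of 0.37 over the 75 members, given as a description of points that share libraries.

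The 3 narrowest widest peaks of any member with a peak belonged to the 3 P-stalk genes: *Rplp1* at 1296 bp, *Rplp0* at 1322 bp and *Rplp2* at 1329 bp. They lay above 34.9%, 36.1% and 36.5% of all genes. Next came *Rpl22* at 1343 bp, so that the difference to the neighbouring member was small.

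**Figure D3:**
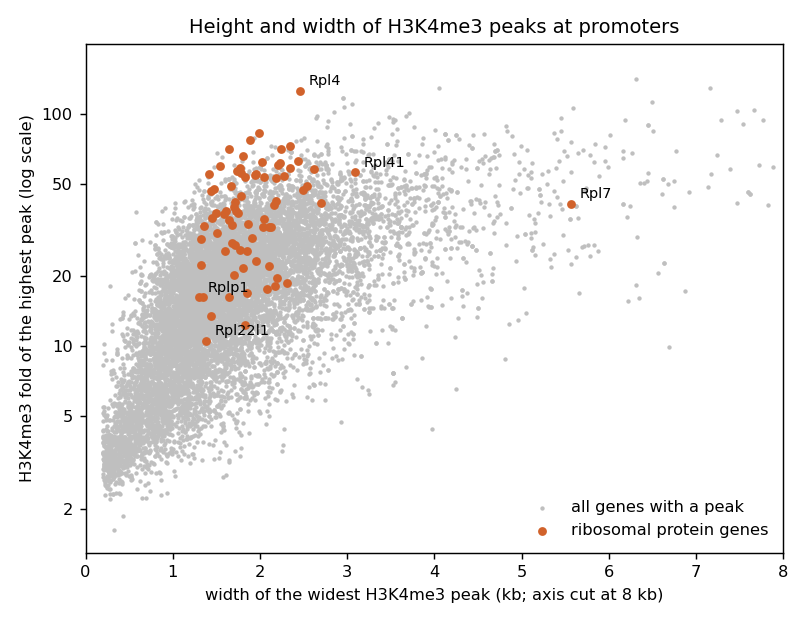
Fold of the highest H3K4me3 peak (log scale) against the width of the widest (kb) for all genes with a peak in grey and the 75 members with a peak in orange; the axis ends at 8 kb and leaves out 21 other genes. Most members lie in the upper part of the cloud between 1 and 3 kb, 56 of the 75 above the upper quartile of fold (26.9). Among the members, *Rpl4* is highest and *Rpl7* lies far to the right.

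Because ribosomal protein genes are short, a peak of this width covered much of the gene. The median gene length was 3400 bp, against 25890 bp for genes with an H3K4me3 peak. The H3K4me3 peaks of a member covered a median of 41.8% of its length, against 4.02% for all genes with a peak. For the mitochondrial ribosome it was 10.8% and for the respiratory chain 14.9%. The highest peak of a member ran from a median of 457 bp before the gene's 5′ end (a median edge at -457) to 1353 bp after it. At 1000 bp after the 5′ end, 84.6% of members were covered by H3K4me3, against 50.6% of all genes with a peak and 78.1% of the top 25.0% of genes by fold. At 1500 bp these shares were 28.2%, 23.1% and 46.5%. The members therefore had a steep downstream edge between these points.

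H3K4me1 was called at a smaller share of members than of all genes with H3K4me3, and its folds there were lower. A peak lay in the window of 63 of 78 members (80.8%, interval 70.7 to 88.0), against 64.8% of all genes. Of the 75 members with an H3K4me3 peak these were 84.0%, against 91.9% of all genes with an H3K4me3 peak. The median of the highest peak was 4.34, against 5.63 over all 13484 genes with one, and 15 of the 63 members were above that median. The highest values were 16.0 at *Rps14*, 10.5 at *Rps12*, 9.76 at *Rpl24*, 9.68 at *Rps10* and 9.35 at *Rpl37a*. The peak at *Rps14* lay at an upstream annotated start near *Ndst1*, on an H3K4me3 peak with a fold of 17.2, and 26229 bp from the highest H3K4me3 peak of the gene. That at *Rps10* lay 236 bp from its single H3K4me3 peak. At 8 of the 63 members the highest H3K4me1 peak overlapped no H3K4me3 peak of the window. The lowest were 2.26 at *Rpl19*, 2.53 at *Rps28*, 2.89 at both *Rpl5* and *Rpl13a*, and 2.98 at *Rpl7a*. *Rpl4* and *Rpl13*, the highest of all for H3K4me3, had no H3K4me1 peak in the window, and the nearest ones were 53898 bp and 12449 bp away. In the related lists, H3K4me1 was called at 84.6% of genes of the mitochondrial ribosome (median fold 4.25) and 83.3% of translation factors (5.36). For ribosome biogenesis it was 93.3% (4.32) and for the respiratory chain 91.0% (4.59). Low H3K4me1 was therefore not particular to the members.

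The position of H3K4me1 differed more than its presence. At the 5′ end itself it covered 6 of 78 members (7.69%), against 26.1% of genes with an H3K4me3 peak and 11.3% of those in the top 25.0% of H3K4me3 fold. At 500 bp downstream the shares were 6.41%, 35.9% and 15.3%. Among the ribosomal protein genes coverage was 3.85% from 200 to 350 bp downstream, and it was lower again only beyond 1600 bp upstream, within the 2 kb examined. Downstream of 500 bp it rose to its highest value, 66.7%, at 1350 bp, and was 43.6% at 1000 bp and 53.8% at 1500 bp. At 500 bp upstream, 20.5% of members were covered, against 36.4% of genes with an H3K4me3 peak. Between 850 and 1350 bp downstream, coverage by H3K4me1 at the members rose from 23.1% to 66.7%. Over the same stretch, coverage by H3K4me3 fell from 88.5% to 44.9%. By 2000 bp both were lower, at 33.3% for H3K4me1 and 8.97% for H3K4me3.

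**Figure D4:**
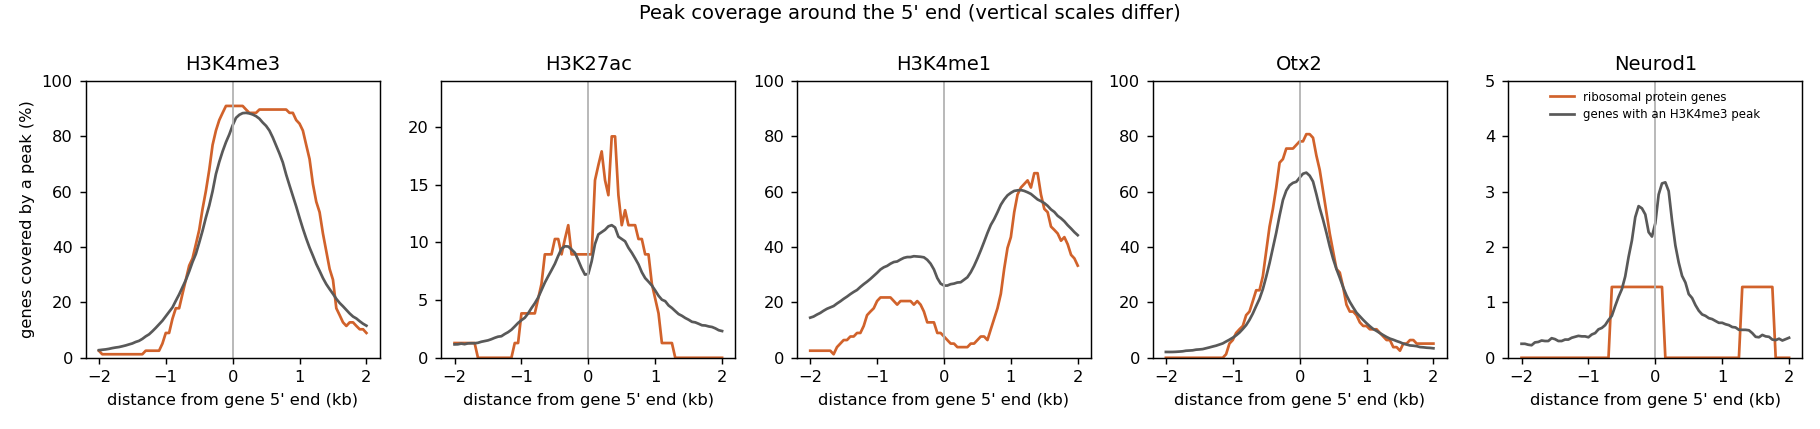
Share of genes covered by a peak (%) in 50 bp steps from 2 kb before to 2 kb after the gene's 5′ end, for ribosomal protein genes (orange) and all genes with an H3K4me3 peak (grey); the vertical scales differ between panels. H3K4me1 at the ribosomal protein genes dips around the 5′ end (7.69% at the end itself, 6.41% at 500 bp downstream) and is highest at 1350 bp (66.7%), where H3K4me3 falls off.

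H3K27ac was called at 30 of 78 members (38.5%, interval 28.4 to 49.6), against 23.1% of all genes. Counted over the 75 members with an H3K4me3 peak the share was 40.0%, close to the 37.2% of all genes with an H3K4me3 peak. It was below the 55.2% of genes in the top 25.0% of H3K4me3 fold. The closeness depended on counting all annotated starts. With 1 start per gene the shares were 36.0% of these members and 26.0% of all genes with an H3K4me3 peak. The median fold was 3.14, against 3.57 over the 4799 genes with such a peak, and 3 of the 30 members exceeded the upper quartile of 4.50. The peaks were weak: only 15 members kept one at a −log10 q of at least 5 (19.2%, against 12.8% of all genes and 20.8% of those with H3K4me3).

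*Rpl10a*, a protein of the mobile stalk at the tRNA exit site, had the highest H3K27ac fold, 5.20, and *Rps10* had 4.89. Neither of these 2 peaks overlapped the H3K4me3 peak of its gene, which lay 81 bp away at *Rpl10a* and 400 bp away at *Rps10*. An overlap of an H3K27ac and an H3K4me3 peak was found at the other 28 of the 30 members. *Rpl13* had 4.52 and *Rpl4* 4.43. The lowest were *Rps3* at 2.10, *Rpl32* at 2.25, *Rps13* at 2.32, *Rpl7a* at 2.35 and *Rpl35a* at 2.48. None of the P-stalk or paralogue-type genes had an H3K27ac peak.

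Members with an H3K27ac peak had higher H3K4me3, with a median fold of 53.5 (17.6 to 126) over 30 genes, against 35.4 (10.6 to 65.9) over the 45 others with H3K4me3. All genes showed the same order, 21.9 over 4414 and 15.1 over 7458. The ranges of both groups of members overlapped. The share with H3K27ac was 61.1% of the 18 members with a neighbouring start and 31.7% of the 60 without one. The 60 include the 3 members without a peak of any target. This split was not counted over all genes, so it cannot be called particular to the members.

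Otx2 was called at 73 of 78 members (93.6%, interval 85.9 to 97.2), against 52.2% of all genes. Over the 75 members with an H3K4me3 peak the share was 97.3%, against 86.8% of all genes with an H3K4me3 peak and 97.0% of those in the top 25.0% of H3K4me3 fold, so that the share at members was close to the latter. At all 73 the Otx2 peak overlapped the H3K4me3 peak. The median fold was 4.31 (range 2.11 to 10.1), against 3.98 over 10869 genes, and 26 of the 73 members (35.6%) were above the upper quartile of 5.29. Genes in the top 25.0% of H3K4me3 fold had a median Otx2 fold of 4.40. The related lists ran from 4.25 for ribosome biogenesis to 4.83 for translation factors, so that the members were close to such promoters. Small subunit genes had a median of 5.44 and large subunit genes of 4.14.

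*Rplp2*, whose promoter is printed above, had the highest Otx2 fold, 10.1, above 97.2% of all genes with a peak. It was followed by *Rpl30* (9.17), *Rps9* (9.14), *Rpl7* (8.82) and *Rps27a* (8.30), which is made as a fusion with ubiquitin. The lowest were *Rpl23* (2.11), *Rpl27* (2.35), *Rpl14* (2.36), *Rpl12* (2.42) and *Rpl8* (2.5). Of the members with H3K4me3, only *Rplp0* and *Rps27* had no Otx2 peak, and the nearest Otx2 peaks were 20756 bp and 17977 bp away. The P-stalk thus held both the strongest Otx2 peak and 1 of the 2 marked promoters without any. Outside the symbol rule, the X-linked genes *Rpl39* (14.9) and *Rpl10* (11.8) had higher Otx2 folds than any member.

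Otx2 summits lay within 250 bp of a start at 64 of 73 members (87.7%), against 75.5% of genes with H3K4me3 and an Otx2 peak. The median summit was 72 bp upstream (-72) of the nearest start, and the summit of H3K4me3 was 98 bp downstream. The letters TAATCC, a site typical of Otx2 and Crx, were found on either strand within 150 bp of the Otx2 summit at 5 of 73 members (6.85%) and at 858 of 10304 genes with H3K4me3 (8.33%). Of 16519 Otx2 peaks over 1 kb from every protein-coding start, 4052 (24.5%) had them. The fold of H3K4me3 and that of Otx2 had a Spearman correlation of 0.01 over the 73 members and of 0.19 over 10304 genes, again as a description.

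Neurod1 was called at 3 of 78 members (3.85%, interval 1.32 to 10.7), against 6.00% of all genes. They were 3 of the 75 with an H3K4me3 peak, against 9.67% of all genes with one. The 3 genes were *Rps10* with a fold of 3.87, *Rps18* with 3.70 and *Rpl10a* with 2.55, all on chromosome 17. They were also the only members with peaks of all 5 targets, and *Rpl10a* and *Rps10* were those with the highest H3K27ac. The Otx2 folds of the 3 genes were 7.37 at *Rpl10a*, 6.73 at *Rps10* and 4.57 at *Rps18*. The Neurod1 peak of *Rps10* (27634892 to 27635399) did not overlap its H3K27ac peak (27636226 to 27637784), whereas those of *Rpl10a* overlapped. The window of *Rps10* held a start of the read-through gene *RPS10-NUDT3*, 6 bp away, and that of *Rps18* a start of *Vps52*, 56 bp away, while *Rpl10a* had no neighbour. The letters CAGATG, an E-box read by Neurod1, stood within 150 bp of the summit at 1 of the 3 genes, against 33.9% of 1148 genes with H3K4me3 and a Neurod1 peak and 57.9% of 3470 Neurod1 peaks over 1 kb from every start.

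The commonest set of peaks at the 75 members with H3K4me3 was H3K4me3, H3K4me1 and Otx2, at 36 genes (48.0%, against 43.1% of all genes with H3K4me3). H3K27ac in addition was found at 23 (30.7%, against 28.0%). A set without H3K4me1 but with Otx2 was found at 7 members (9.33%, against 4.65%), and with H3K27ac too at 4 (5.33%, against 1.41%). *Rplp0* was the single member with H3K4me3 alone. *Rps27*, the other gene without Otx2, had H3K4me3 (25.9) and H3K4me1 (3.94).

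Other features of the promoters and genes were counted in the 300 bases from 250 before to 50 from the reference start onward. CCGGAA was found in 34 of 78 members (43.6%), against 18.5% of all promoters, 28.0% of those with H3K4me3 and 55.1% of those of the mitochondrial ribosome. AAGATGG, read by YY1, was found in 10 (12.8%), against 6.28% of all promoters and 17.9% of those of the mitochondrial ribosome. GGGCGG was found in 37 (47.4%), against 46.1% of all and 65.8% of those with H3K4me3. TATAAA was found in 8 (10.3%), against 12.6% and 6.54%. TAATCC was found in 6 (7.69%), against 7.19% of all, and CAGATG in 9 (11.5%), against 14.6%.

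The ratio of observed to expected CpG exceeded 0.6 in 63 members (80.8%), against 75.4% of promoters with H3K4me3. Small nucleolar RNAs, which guide the modification of ribosomal RNA, were annotated inside 27 of 78 members (34.6%), against 1.17% of all genes. The median H3K4me3 fold of these hosts was 37.4, and that of the other 48 members with a peak 40.4. The members with a TOP start had a median H3K4me3 fold of 41.3 and those without of 36.5, with ranges that overlapped.

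**Figure D5:**
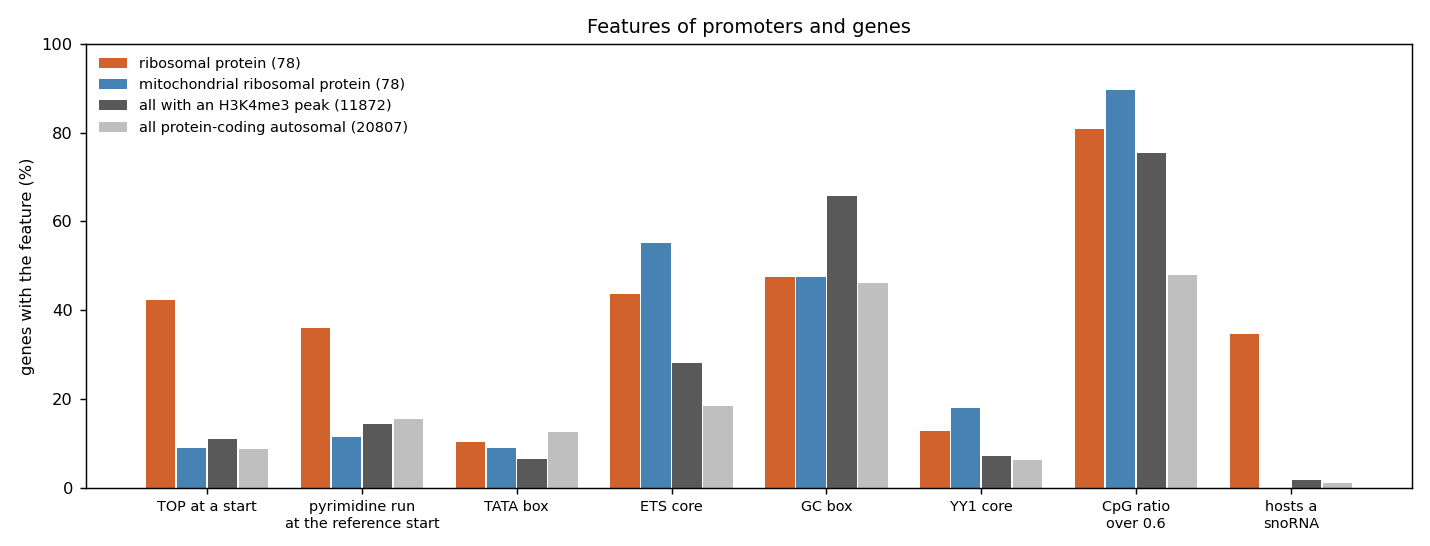
Share of genes (%) with each feature for ribosomal protein genes, genes of the mitochondrial ribosome, all genes with an H3K4me3 peak and all protein-coding autosomal genes. TOP starts (42.3%) and hosted small nucleolar RNAs (34.6%) stand above all 3 other lists, whereas the ETS core CCGGAA is commonest at the mitochondrial ribosome (55.1%).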

How the data were processed

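The authors trimmed reads (cutadapt 3.5, Trim Galore 0.6.4), aligned them to GRCm38 with Bowtie2, kept those with a mapping quality above 30 (SAMtools 1.12), removed duplicates with UMI-tools, pooled technical replicates and ran macs2 on all libraries of a target together, with IgG as control and a q-value limit of 0.05. Blacklisted and mitochondrial regions were removed. The deposited fold enrichment is a ratio of pooled signal to IgG, and the deposited significance is a −log10 q-value. Neither was rescaled.

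A peak belonged to a gene if it came within 1 kb of any annotated start (GENCODE M21). A gene's value is its highest fold and its widest peak. Another gene's start in the window means that of a protein-coding gene. Sequences were read from the GRCm38 genome, where 222 of 222 start codons of members read ATG. Named genes were the 5 highest and 5 lowest per target, the 3 widest and 3 narrowest H3K4me3 peaks, members without H3K4me3 or with Neurod1, and all P-stalk and paralogue-type members; others were named after their values were seen, and a few genes that this rule or the marker lists take in are not reported here by name. The members and lists were chosen with earlier results of these data known.

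Python 3.11.15, numpy 2.4.6, pandas 2.3.3, scipy 1.17.1, pysam 0.24.0 and matplotlib 3.10.9 were used. Overlap counts in 500 simulated windows were compared with those of bedtools 2.31.1, and 0 differed. Alternatives were windows of 500 bp and 2 kb, the summit in the window, a −log10 q of at least 5, a fold of at least 2.5, the nearest peak, merging of peaks within 500 bp, 1 start per gene, and leaving out members with a neighbouring start or paralogue-type members.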

Additional observations from a re-analysis of the deposited data

How the results depend on the processing

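Of 80 alternatives run over 11 results, 74 stayed close to the reported value (shares within their 95% interval, medians and widths within 1.5 times) and 6 moved. The share with H3K4me3 became 100% without paralogue-type members. The share with H3K27ac fell to 19.2% at a −log10 q of at least 5. The share with H3K4me1 fell to 59.0% in a window of 500 bp, 66.7% with the summit in the window, 65.4% at a −log10 q of at least 5 and 62.8% with 1 start per gene. Of the 75 members with an H3K4me3 peak these settings gave 61.3%, 69.3%, 68.0% and 65.3%, each below the share of all genes with an H3K4me3 peak (76.6%, 74.3%, 81.4% and 84.0%). The median H3K4me3 fold ran from 37.4 to 39.0 and its median width from 1767 to 1856 bp. Neurod1 rested on 3 members, and on 1 without those with a neighbouring start (1.67%).

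No paired analysis was possible because each list pools the replicates of its target, and no replicate was left out for the same reason. Read depth is unknown, and a gene without a peak is a gene without a call at the threshold of the authors. Folds of different targets come from different antibodies and library numbers and were not compared with each other. The Otx2 list combines both antibodies and cannot be split.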

Other observations

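Named pseudogenes of ribosomal proteins are mostly processed copies of the messages, without the promoter of the parent gene. Of 250 autosomal pseudogenes with a ps symbol, 2 (0.8%) had an H3K4me3 peak within 1 kb of their start, and 1 of these had no protein-coding start within 2 kb. Otx2 peaks were found at 4 (1.60%), H3K27ac peaks at 9 (3.6%), H3K4me1 peaks at 20 (8.0%) and a Neurod1 peak at 1 (0.400%). The authors kept only reads with a mapping quality above 30. How many reads from such copies this removed is unknown, so a copy without a peak is a copy without a call.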
